A study of Mus musculus with 12 samples.

Results

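ARAP, ADAP, GIT and SMAP proteins are the GTPase-activating proteins for ARF small GTPases that are described here, through the expression of their 9 genes (Arap1, Arap2, Arap3, Adap1, Adap2, Git1, Git2, Smap1 and Smap2) in mouse melanoma tumors with and without Arf6. The members were taken by name from the family, matched to the 55487 Ensembl identifiers of the count table by symbol, and all 9 had enough counts to be tested among 16225 genes. The tumors carry the genotype BrafCA;Cdkn2af/f in the wild-type group (6 tumors, Arf6 intact) and BrafCA;Cdkn2af/f;Arf6f/f in the Arf6-null group (6 tumors), so the Braf and Cdkn2a alleles are common to both groups. The sources used here do not give the age and sex of the mice or the Cre that acts on the floxed alleles. The comparison asks what happens to transcripts of these GTPase-activating proteins when one of the GTPases they act on is lost.

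An ARF GTPase is active while it holds GTP, and an exchange factor loads it with that nucleotide. A GTPase-activating protein ends the active state by speeding up hydrolysis, with a zinc-finger domain that all members of this family share. ARF6, the family's plasma membrane and endosome member, governs endocytosis, recycling, adhesion and cell shape. ARAP proteins join this domain to lipid-binding PH domains, ADAP proteins are small and bind phosphoinositides through PH domains, GIT proteins are adhesion scaffolds, and SMAP proteins bind clathrin.

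Library totals ran from 22211738 to 30326419 counts in wild type and from 21007954 to 45688253 in Arf6-null tumors. Levels are CPM, counts relative to library size with trimmed-mean scaling between libraries, and n is 6 tumors per genotype unless stated. Arf6 checks the labels: it was at 84.2 to 147 CPM in wild type and 12.2 to 22.5 CPM in Arf6-null tumors, without overlap (edgeR quasi-likelihood adjusted p = 0.000101). Melanocyte markers were close to absent in tumors of both genotypes, with 9 markers summing to 11.9 to 29.2 and 9.94 to 31.3 CPM and Mlana at 0 counts in every library. Tumors differed in sex chromosome expression: 3 wild-type and 5 Arf6-null libraries had over 10 CPM of summed Y-linked transcripts. The sums were 0 to 248 CPM in wild type (median 11.3) and 0.444 to 218 CPM in Arf6-null tumors (median 193). The wild-type libraries over 10 CPM thus include a library far below the Arf6-null median, which limits every comparison of the 8 libraries over that level. Skeletal muscle markers, 10 of 10 with a negative log2 fold change and 1 called, summed to 1321 to 2152 CPM in wild-type replicates 3, 4 and 5, the muscle-rich tumors, and to 5.78 to 208 CPM in the other 9. Library numbers 1 to 6 are wild type and 19 to 24 Arf6-null. Tumor numbers nearly separate the genotypes too: every Arf6-null tumor is numbered within 19836 to 20570. Wild-type tumors are numbered within 5526 to 7657, except for replicate 5 with 20681. What either kind of number stands for is not given. If library numbers follow rounds of preparation, an effect of round cannot be told apart from genotype. The labels do not say that the tumors came from separate animals, and p-values then speak only to the spread among these 12.

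No member passed the test for a genotype difference. By edgeR 0 of 9 had an adjusted p under 0.05, where 1.15% of all tested genes did, and 0 of 9 had one under 0.1, against 8.38% of all genes. At an unadjusted p under 0.05 there were 2 of 9, Adap2 and Git2, against 23.4% of all genes. DESeq2 called 1 of 9, Adap2, as lower, where it called 6.63% of all genes lower, and limma-voom called 0 of 9 against 6.14%. No member had CPM values free of overlap between the genotypes, and 2.36% of all genes did. Log2 fold changes, Arf6-null over wild type, were negative for 7 members and positive for 2, with a median of -0.20. Of all tested genes 52.8% were negative and the median was -0.03. The median size of the change without its sign was 0.21 for the members and 0.25 for all genes.

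**Figure D1:**
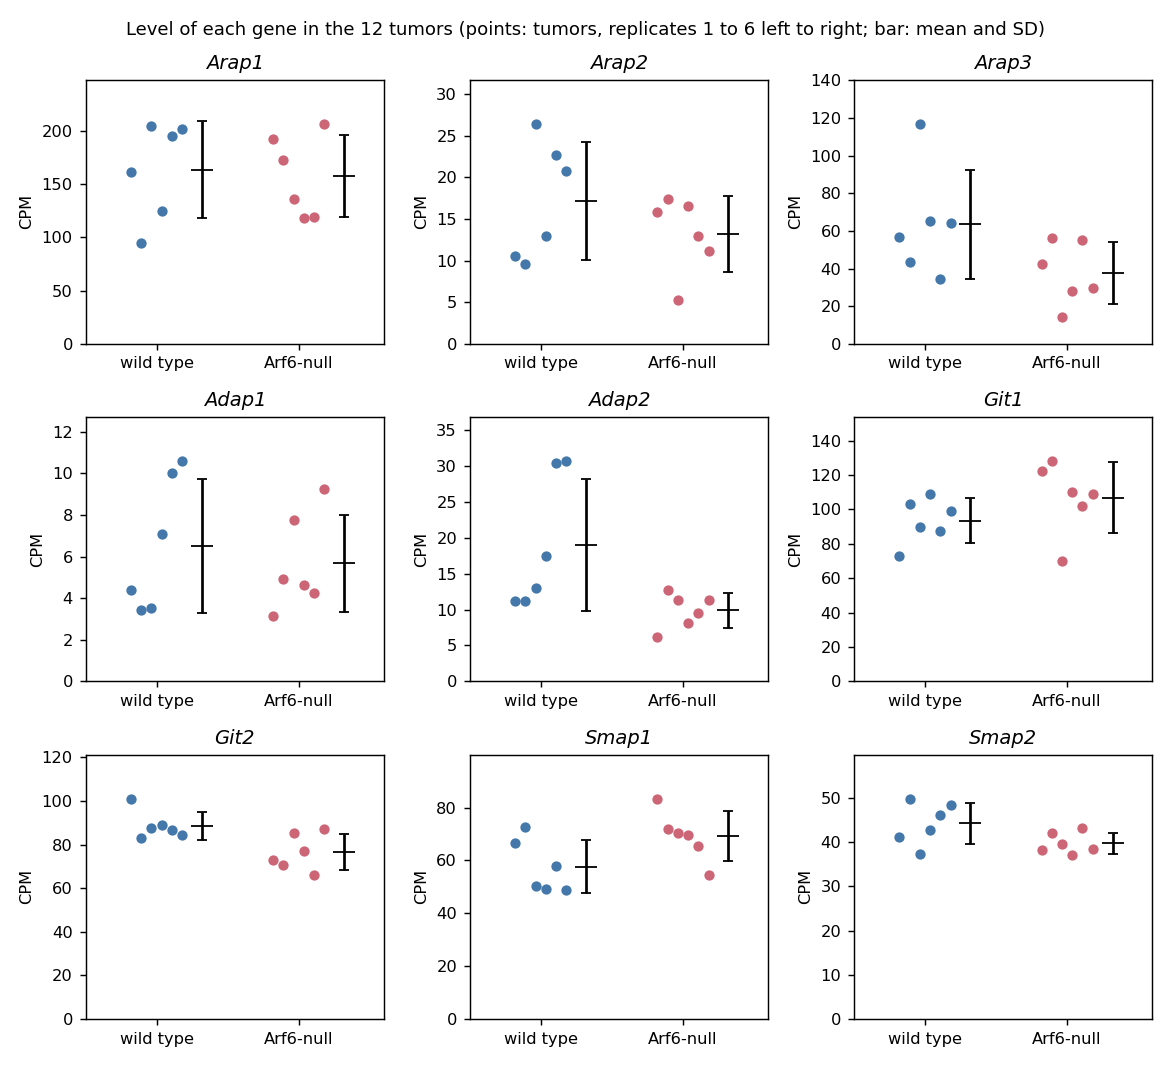
Level of each of the 9 genes in CPM (vertical axes, each from 0) in the 6 wild-type (blue) and 6 Arf6-null (red) tumors; each point is 1 tumor and the bar gives mean and SD. The genotypes overlap for every gene; 2 wild-type tumors reach 30.3 and 30.6 CPM for Adap2, which is at most 12.7 CPM in Arf6-null tumors.

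The members differed in abundance more than any of them did between genotypes. Levels are compared between genes only after division by the length of the principal transcript, in CPM per kilobase over all 12 tumors. Arap1 was highest at 36.5 ± 9.13 CPM per kilobase (SD, n = 12), followed by Git1 at 28.5 ± 5.07, Smap1 at 27.7 ± 4.85 and Git2 at 27.7 ± 3.17. These 4 genes are not ordered beyond their spread: Arap1 exceeded Git1 in 8 of 12 tumors, Git1 exceeded Smap1 in 7 and Smap1 exceeded Git2 in 6. Smap2 came next at 14.5 ± 1.46 CPM per kilobase, below Git2 in all 12 tumors. Arap3 was at 9.69 ± 5.02 and Adap2 at 8.07 ± 4.47 CPM per kilobase, and Arap3 was above Adap2 in 8 of 12 tumors. Adap1 at 2.38 ± 1.06 and Arap2 at 2.08 ± 0.824 CPM per kilobase were the lowest, and Adap2 was above Adap1 in all 12 tumors. Git2 has many annotated exons beyond its principal transcript of 2984 bases. With the union of all annotated exons, 17362 bases, it would stand at 4.76 ± 0.546 CPM per kilobase, so its place in this order depends on which transcripts the tumors use. Other places change with the union lengths too. Git1 at 20.7 ± 3.68 CPM per kilobase would be first, above Arap1 at 19.05 ± 4.765 in 6 of 12 tumors. Adap2 at 8.07 ± 4.47 would be above Arap3 at 6.35 ± 3.29 in 8 of 12.

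Among the ARAP genes, Arap1 was the most abundant, and Arap3 had the largest log2 fold change, which did not pass the test. Arap1 encodes a regulator of ARF GTPases that takes part in epidermal growth factor receptor traffic, and lies on chromosome 7 at 101348067 to 101412586 (GRCm38, plus strand). Its level was 160.9, 95.1, 204, 125, 195 and 202 CPM in wild-type replicates 1 to 6 and 193, 173, 136, 118, 119 and 207 CPM in Arf6-null replicates 1 to 6. The ranges nearly coincide, and the log2 fold change was -0.05 (SE 0.21, adjusted p = 0.90 by edgeR), with 2 SE either side reaching from -0.48 to 0.37. Its sign turned under several alternatives, which the closing section gives.

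Arap2, whose protein acts on ARF6 at focal adhesions, lies on chromosome 5 at 62602445 to 62766159 on the minus strand. It measured 10.5, 9.59, 26.5, 13.0, 22.7 and 20.7 CPM in wild-type replicates 1 to 6, against 15.9, 17.4, 5.29, 16.6, 13.0 and 11.2 CPM in the Arf6-null ones. Wild-type replicates 3, 5 and 6 were above every Arf6-null tumor and Arf6-null replicate 3 was below every wild-type one, and the log2 fold change was -0.38 (SE 0.33, adjusted p = 0.513 by edgeR).

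Arap3, a phosphoinositide-regulated protein acting on ARF6 that is known from endothelium and leukocytes, lies on chromosome 18 at 37972628 to 37998969 on the minus strand. It measured 56.6, 43.2, 117, 65.2, 34.5 and 64.4 CPM in wild-type replicates 1 to 6, against 42.6, 56.0, 14.1, 28.2, 55.3 and 29.7 CPM in the Arf6-null ones. Wild-type replicate 3 was the highest, 4 wild-type tumors lay above all Arf6-null tumors, and 3 Arf6-null tumors lay below all wild-type tumors. The mean was 63.5 ± 28.9 against 37.6 ± 16.6 CPM (SD, n = 6 each), a log2 fold change of -0.75 (SE 0.35, adjusted p = 0.224 by edgeR). Without wild-type replicate 3 the log2 fold change was -0.49 (adjusted p = 0.436 by edgeR). The 12 endothelial markers tested had no called member, with 9 negative and 3 positive log2 fold changes. Their summed levels were 246 to 616 CPM in wild type and 274 to 609 CPM in Arf6-null tumors. The endothelial score, the mean log2 CPM of the list, was lower in range in the Arf6-null group. It was 3.26 to 4.69 there and 4.04 to 5.35 in wild type, with overlap. The lymphatic endothelial markers tested, none called, had negative log2 fold changes in 3 of 3, the same sign as Arap3. The lymphatic score, the mean log2 CPM of its list, was 2.08 to 4.22 in wild type and 0.37 to 1.59 in the Arf6-null group, without overlap, and its part in the Arap3 levels was not tested. With the endothelial score as a covariate the Arap3 log2 fold change was -0.70 (adjusted p = 0.544 by edgeR). Against that score, Pearson's r within genotype was 0.027 for Arap3 (permutation p = 0.938). Against the macrophage and monocyte score r was -0.571 (permutation p = 0.0337, adjusted over all relations of members and scores 0.27). It was -0.18 without wild-type replicates 3 and 5. With the macrophage score as a covariate the Arap3 log2 fold change was -0.89 (adjusted p = 0.126 by edgeR). In bulk tumors fewer cells of a type and less RNA per cell cannot be told apart.

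Adap2 had the largest log2 fold change of the 9 genes, which did not pass the edgeR test, and its wild-type tumors were the more variable. ADAP2 binds phosphoinositides at the plasma membrane, acts on ARF6, and is known as an interferon-induced protein that limits entry of some RNA viruses. The gene lies on chromosome 11 at 80154105 to 80178958 on the plus strand. Its level was 11.2, 11.2, 12.9, 17.4, 30.3 and 30.6 CPM in wild-type replicates 1 to 6 and 6.23, 12.7, 11.3, 8.12, 9.45 and 11.4 CPM in Arf6-null replicates 1 to 6, from 124 to 883 counts per library. Wild-type replicates 3 to 6 stood above all Arf6-null tumors, and wild-type replicates 1 and 2 lay inside the Arf6-null range. The mean was 18.9 ± 9.21 against 9.87 ± 2.41 CPM (SD, n = 6 each), a log2 fold change of -0.94 (SE 0.30, adjusted p = 0.103 by edgeR), with 2 SE either side reaching from -1.55 to -0.33. DESeq2 gave -0.93 (SE 0.32, adjusted p = 0.0356), and the adjusted p over all 24 alternatives ran from 0.0356 to 0.377. In the 8 libraries with Y-linked expression over 10 CPM the 3 wild-type tumors were at 11.2 to 17.4 CPM and the 5 Arf6-null tumors at 6.23 to 12.7 CPM, a log2 fold change of -0.47 (SE 0.28, adjusted p = 0.377 by edgeR).

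Adap1, a phosphoinositide-binding protein best known from neurons, lies on chromosome 5 at 139271876 to 139325622 on the minus strand and rests on 63 to 354 counts per library. It measured 4.41, 3.41, 3.54, 7.07, 10.04 and 10.6 CPM in wild-type replicates 1 to 6, against 3.17, 4.93, 7.78, 4.66, 4.25 and 9.25 CPM in the Arf6-null ones. The ranges overlap almost fully, and the log2 fold change was -0.20 (SE 0.36, adjusted p = 0.779 by edgeR).

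Adap1 and Adap2 moved together from tumor to tumor. After subtraction of the genotype means, Pearson's r of their log2 CPM was 0.877 over 12 tumors (permutation p = 0.0013, adjusted over the 36 pairs of members 0.0468) and Spearman's rho was 0.888 (permutation p = 0.0011, adjusted 0.0396). The value was 0.955 within wild type, 0.73 within Arf6-null, and 0.799 without wild-type replicates 5 and 6, the tumors farthest from the median of Adap1. In the 8 libraries with Y-linked expression over 10 CPM r was 0.802. No other pair of members passed the adjustment, and 2 of 36 had an unadjusted permutation p under 0.05. The correlation is computed within genotype, so it does not bear on the genotype difference.

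Since these 2 genes move together, the genomic bases just upstream of each are shown, cut where the annotated gene begins (RefSeq promoter table of GRCm38.p6, gene strand, 5′ to 3′), with the GC box GGGCGG or its reverse complement CCGCCC in capitals. Adap1 is at chr5:139325623-139325714 on the minus strand and Adap2 at chr11:80153912-80154104 on the plus strand.
Adap1: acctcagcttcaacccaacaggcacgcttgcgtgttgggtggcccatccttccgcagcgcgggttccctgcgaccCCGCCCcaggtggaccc
Adap2: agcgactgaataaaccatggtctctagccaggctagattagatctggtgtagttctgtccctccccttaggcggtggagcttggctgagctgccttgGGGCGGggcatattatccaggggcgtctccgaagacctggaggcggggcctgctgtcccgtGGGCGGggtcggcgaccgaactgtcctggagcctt
The stretches hold 1 and 2 matches. In the 250 bases before the RefSeq start, searched on both strands, Adap1 had 3 and Adap2 had 2, and 32.7% of the 32851 promoters in the table hold at least 1. The same window held 2 for Arap1, 5 for Arap2, 9 for Git1, 1 for Git2 and 2 for Smap1, so all 7 members searched had a match. For Git2 the RefSeq start used lies 2025 bases inside the annotated gene, so its window is within the gene and not upstream of it. The number of CG dinucleotides in the 250 bases was 39 for Adap1 and 16 for Adap2, against a median of 6 over all promoters. It was 13 for Arap1, 36 for Arap2, 38 for Git1, 13 for Git2 and 24 for Smap1. All 7 members searched were thus above that median, so this is not particular to the ADAP genes. Arap3 and Smap2 are the members not searched.

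Both ADAP genes were compared with marker scores of immune cells, muscle and endothelium, as were the other members. Against the macrophage and monocyte score, r within genotype was 0.67 for Adap2 (permutation p = 0.0605) and 0.665 for Adap1 (permutation p = 0.0342), and adjusted over the 36 relations of 9 members and 4 scores both were 0.27. Against the T cell score, r was 0.755 for Adap2 (permutation p = 0.0112, adjusted 0.27) and rho was 0.79 (permutation p = 0.00628, adjusted 0.226). Of these relations 0 of 36 passed the adjustment and 5 had an unadjusted permutation p under 0.05. They include Adap1 (r = 0.627, permutation p = 0.0455) and Arap1 (r = 0.634, permutation p = 0.0415) with the T cell score. Arap3 with the macrophage score (r = -0.571, permutation p = 0.0337) is another. Smap2 had r = 0.644 with the macrophage score (permutation p = 0.0787), close to that of Adap2. Without the 2 tumors farthest from the median score, r was 0.587 for Adap2 with the macrophage score and 0.701 with the T cell score. Of the 12 macrophage and monocyte markers 11 had a negative log2 fold change and none was called, with summed levels of 1539 to 4905 CPM in wild type and 1968 to 3114 CPM in Arf6-null tumors. With that score as a covariate the Adap2 log2 fold change was -0.69 (SE 0.24, adjusted p = 0.119 by edgeR). The 10 T cell markers, none called, summed to 34.4 to 211 CPM in wild type and 25.1 to 161 CPM in the Arf6-null group, and their part in the Adap2 levels was not tested. The type I interferon target genes had positive log2 fold changes in 14 of 14, none called, the opposite sign to Adap2. They summed to 157 to 1084 CPM in wild type and 565 to 1208 CPM in Arf6-null tumors. Within wild type, replicates 5 and 6, the highest for Adap2, also had the highest sums, 1084 and 990 CPM. Among Arf6-null tumors the highest sum was in replicate 6 and the highest Adap2 level in replicate 2. The part of these genes in the Adap2 levels was not tested.

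**Figure D2:**
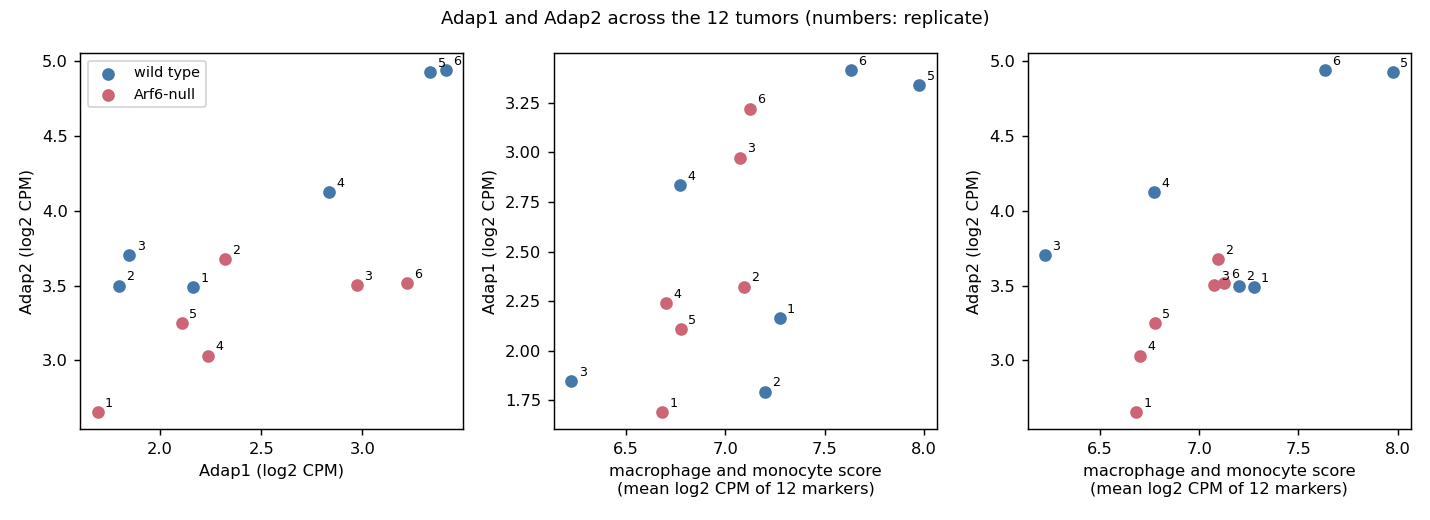
Log2 CPM of Adap2 against Adap1 (left), and of Adap1 (middle) and Adap2 (right) against the mean log2 CPM of 12 macrophage and monocyte markers; each point is 1 tumor, blue for wild type and red for Arf6-null, with its replicate number. Wild-type replicates 5 and 6 are highest for both genes and for the score, and Adap1 and Adap2 rise together within each genotype.

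Neither GIT gene passed the test. Git1 and Git2 encode scaffolds that bring the exchange factor PIX and PAK kinases to adhesions by binding paxillin. Git1, on chromosome 11 at 77493562 to 77507786 (plus strand), measured 72.6, 103, 89.9, 109, 87.7 and 98.8 CPM in wild-type replicates 1 to 6, against 123, 128, 69.8, 110.1, 102 and 109 CPM in the Arf6-null ones. Arf6-null replicate 3 was the lowest of all 12 tumors while 3 other Arf6-null tumors were above every wild-type one, and the log2 fold change was 0.19 (SE 0.14, adjusted p = 0.445 by edgeR).

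Git2, on chromosome 5 at 114727407 to 114775517 (minus strand), measured 101, 83.3, 87.8, 88.8, 86.7 and 84.3 CPM in wild-type replicates 1 to 6, against 73.0, 70.8, 85.2, 77.1, 66.1 and 87.1 CPM in the Arf6-null ones. Arf6-null replicates 1, 2, 4 and 5 lay below every wild-type tumor, and replicates 3 and 6 inside the wild-type range. The mean was 88.7 ± 6.42 against 76.6 ± 8.27 CPM (SD, n = 6 each), a log2 fold change of -0.21 (SE 0.087, adjusted p = 0.17 by edgeR), with 2 SE either side reaching from -0.39 to -0.04. Git2 overlaps Ankrd13a on the other strand with no shared exonic bases.

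Neither SMAP gene passed the test. SMAP1 acts on ARF6 in clathrin-dependent uptake from the plasma membrane, and SMAP2 acts at the trans-Golgi network and early endosomes. Smap1, on chromosome 1 at 23844846 to 23922317 (minus strand), measured 66.8, 72.6, 50.5, 49.1, 58.1 and 48.8 CPM in wild-type replicates 1 to 6, against 83.3, 72.0, 70.3, 69.8, 65.4 and 54.4 CPM in the Arf6-null ones. Wild-type replicates 3, 4 and 6 lay below every Arf6-null tumor and wild-type replicates 1, 2 and 5 inside their range, for a log2 fold change of 0.26 (SE 0.13, adjusted p = 0.24 by edgeR). The exons of Smap1 share 58.1% of their bases with B3gat2 on the other strand. B3gat2 had 5 counts over all libraries and Smap1 had 23606, and reads from the shared bases can be assigned only if the counting used strand, which the sources used here do not give.

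Smap2, on chromosome 4 at 120968317 to 121017247 (minus strand), was the least variable member across Arf6-null tumors. It measured 41.1, 49.8, 37.4, 42.8, 46.2 and 48.4 CPM in wild-type replicates 1 to 6, against 38.1, 42.1, 39.7, 37.1, 43.2 and 38.6 CPM in the Arf6-null ones. Its SD was 5.99% of the mean in Arf6-null tumors, and the log2 fold change was -0.15 (SE 0.086, adjusted p = 0.299 by edgeR).

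**Figure D3:**
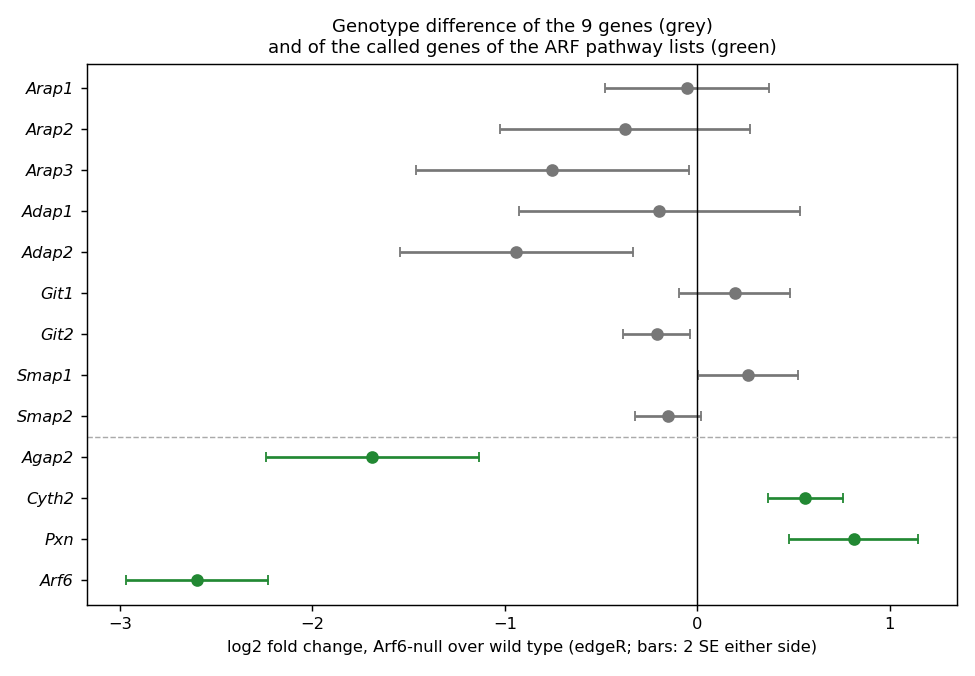
Log2 fold change, Arf6-null over wild type (horizontal axis), of the 9 genes (grey) and of the genes called in the ARF pathway lists (green), by edgeR over 6 tumors per genotype; bars reach 2 SE either side. The intervals of 4 of the 9 members, Arap3, Adap2, Git2 and Smap1, do not include 0, as is so for 27.5% of all tested genes, none of them is called after adjustment over all genes, and Arf6 stands at -2.60.

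The balance between relatives was compared as the difference of their log2 CPM within a library, called the log2 ratio here. Apart from the small prior count added to each gene, it does not depend on how libraries are scaled. For 5 pairs an exact permutation test over all arrangements of the genotype labels was used, two-sided, with adjustment over the 5. Of these, 2 passed: Adap1 relative to Adap2 and Smap1 relative to Smap2 were both higher in Arf6-null tumors. The CPM of Adap1 was 0.395, 0.303, 0.273, 0.406, 0.331 and 0.345 times that of Adap2 in wild type and 0.508, 0.388, 0.69, 0.573, 0.45 and 0.812 times in Arf6-null tumors. In 5 Arf6-null tumors the ratio was above every wild-type one, and Arf6-null replicate 2 lay inside the wild-type range. The log2 ratio rose from -1.55 ± 0.217 to -0.85 ± 0.39 (SD, n = 6 each), a difference of 0.70 (exact permutation p = 0.00649, adjusted 0.0325). Without wild-type replicate 5 or wild-type replicate 6 the exact permutation p, adjusted over the pairs, was 0.0577 and 0.0649, with differences of 0.69 and 0.71.

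Smap1 stood at 1.63, 1.46, 1.35, 1.15, 1.26 and 1.01 times Smap2 in wild type and at 2.19, 1.71, 1.77, 1.88, 1.51 and 1.41 times in Arf6-null tumors. In 4 Arf6-null tumors the ratio was above every wild-type one, and Arf6-null replicates 5 and 6 were inside the wild-type range. The log2 ratio rose from 0.37 ± 0.245 to 0.79 ± 0.225 (SD, n = 6 each), a difference of 0.42 (exact permutation p = 0.013, adjusted 0.0325). This call was lost in 6 of the 12 tests that leave out 1 library: the adjusted exact permutation p was 0.0595, 0.0577 and 0.0703 when wild-type replicate 4, 5 or 6 was dropped, and 0.0758, 0.0595 and 0.0595 when Arf6-null replicate 1, 2 or 4 was. The difference stayed between 0.35 and 0.48 in all 12. Within the 8 libraries with Y-linked expression over 10 CPM (3 against 5) the difference was 0.37 for Smap1 to Smap2 and 0.48 for Adap1 to Adap2, and neither passed (exact permutation, adjusted p = 0.223 for each). With so few libraries the smallest exact permutation p is 0.0179, which for a pair passing alone is 0.0893 after adjustment over the 5, so this subset could hardly pass.

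The other pairs did not pass. Git1 to Git2 was 0.07 ± 0.294 in wild type and 0.46 ± 0.412 in Arf6-null tumors on the log2 scale (SD, n = 6 each), a difference of 0.40 (exact permutation p = 0.0887, adjusted 0.127). Arf6-null replicate 3 was the only Arf6-null tumor not above every wild-type one, and without it the difference was 0.55 (exact permutation p = 0.00216, adjusted 0.0108). Wild-type replicate 1 was the lowest of all 12 tumors, and without it the difference was 0.29 (exact permutation p = 0.182, adjusted 0.216). Arap1 to Arap3 differed by 0.75 (exact permutation p = 0.102, adjusted 0.127) and Arap1 to Arap2 by 0.33 (exact permutation p = 0.316, adjusted 0.316), with 2 Arf6-null tumors above the wild-type range in either pair and 1 below it for Arap1 to Arap2.

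**Figure D4:**
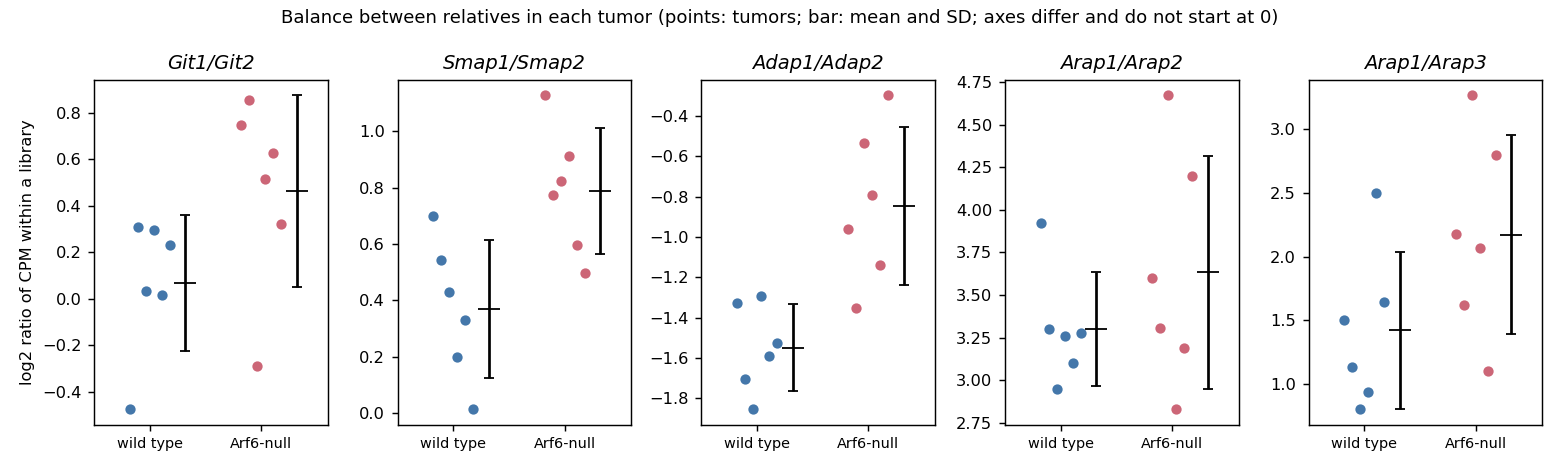
Log2 ratio (difference of log2 CPM) of 2 related genes within each library (vertical axes differ between panels and do not start at 0) in 6 wild-type (blue) and 6 Arf6-null (red) tumors; points are tumors and bars mean and SD. Smap1/Smap2 and Adap1/Adap2 are on average 0.42 and 0.70 higher in Arf6-null tumors, and for Git1/Git2 wild-type replicate 1 is lowest at -0.476, followed by Arf6-null replicate 3 at -0.289.

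The rest of the ARF pathway had few called genes. Of the 14 other ARF GTPase-activating proteins edgeR called 1 lower and 0 higher, with a median log2 fold change of 0.02. Over all genes 0.561% were called lower and 0.586% higher. The lower one, Agap2, a brain-enriched GTPase-activating protein, fell from 9.95 ± 2.66 CPM in wild type to 3.08 ± 1.13 CPM in the Arf6-null group (log2 fold change -1.69, SE 0.28, adjusted p = 0.0239 by edgeR, n = 6 each). It missed the threshold without wild-type replicate 1, 4 or 6 (adjusted p = 0.0545, 0.0573 and 0.0527 by edgeR). The same holds with Y-linked expression or the endothelial score as a covariate (0.0579 and 0.123 by edgeR) and without the muscle-rich wild-type tumors (0.106). DESeq2 and limma-voom also called Acap3 lower, where they called 1255 of 18935 and 483 of 16225 genes lower in the whole series. The next by p, Acap3 and Arfgap3, had means in wild type against Arf6-null tumors of 35.5 ± 6.17 against 22.5 ± 4.91 CPM (adjusted p = 0.0614 by edgeR) and of 69.5 ± 14.0 against 91.7 ± 12.9 CPM (0.124).

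Of 13 tested exchange factors for ARF GTPases edgeR called 1 higher and 0 lower, with a median of -0.14. Cyth2, a cytohesin that activates ARF6, rose from 95.9 ± 7.71 CPM in wild type to 141 ± 18.3 CPM in the Arf6-null group (log2 fold change 0.56, SE 0.097, adjusted p = 0.0267 by edgeR). It missed the threshold without wild-type replicate 1, 3, 4 or 6 (adjusted p = 0.0598, 0.0663, 0.0617 and 0.0601 by edgeR) and without Arf6-null replicate 1 or 2 (0.0646 and 0.0642). It also missed it with the Y-linked or the endothelial covariate (0.0814 and 0.153 by edgeR), without the muscle-rich wild-type tumors (0.125), and in the 8 libraries with Y-linked expression over 10 CPM (0.0655). Psd and Iqsec2, the next by p, had means of 3.90 ± 3.82 against 0.912 ± 0.535 CPM (adjusted p = 0.0888 by edgeR) and of 31.9 ± 1.95 against 27.5 ± 2.64 CPM (0.163). DESeq2 also called Psd lower, as it did 6.63% of all genes, and limma-voom did not. Of the 6 ARF GTPases edgeR called 1, Arf6, as lower, with a median of 0.07, and Arf5 and Arf1 had means of 100.5 ± 7.69 against 129.9 ± 15.5 CPM (adjusted p = 0.0629 by edgeR) and of 407 ± 44.2 against 500.3 ± 42.9 CPM (0.101). DESeq2 and limma-voom called both higher, where they called 986 of 18935 and 513 of 16225 genes higher in the whole series.

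Partners of the members were tested by list. Among 16 partners of GIT proteins edgeR called 1 higher and 0 lower, with a median of -0.05. It was Pxn, which encodes paxillin, the adhesion protein that GIT binds. Pxn rose from 417 ± 72.9 CPM in wild type to 732 ± 163 CPM in the Arf6-null group (log2 fold change 0.81, SE 0.17, adjusted p = 0.0432 by edgeR). Its call held in only 3 of the 12 fits with 1 library left out, those without wild-type replicate 2, wild-type replicate 5 and Arf6-null replicate 6 (adjusted p = 0.0296, 0.0404 and 0.0203 by edgeR). In the other 9 the adjusted p reached from 0.0568, without Arf6-null replicate 3, to 0.0956, without wild-type replicate 3. The call was also lost with the Y-linked, endothelial or macrophage covariate (0.114, 0.231 and 0.063 by edgeR), without the muscle-rich wild-type tumors (0.202), and in the 8 libraries (0.0758). Nck1, an adaptor, and Arhgef6, the alpha PIX exchange factor, had means of 40.9 ± 5.24 against 31.4 ± 5.47 CPM (adjusted p = 0.109 by edgeR) and of 25.2 ± 10.2 against 14.5 ± 3.99 CPM (0.115).

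Among 10 clathrin partners of SMAP proteins edgeR called 0, with a median of 0.10. At an unadjusted edgeR p under 0.05 there was 1 of 10, against 23.4% of all tested genes. The lists above had 5 of 14 other GTPase-activating proteins, 4 of 13 exchange factors, 3 of 6 ARF GTPases and 5 of 16 GIT partners. Kit, a receptor whose uptake SMAP1 is known to affect, was at 9.59 to 23.7 CPM in wild type and 1.22 to 8.57 CPM in Arf6-null tumors, without overlap (log2 fold change -1.54, SE 0.40, adjusted p = 0.0629 by edgeR). Kit also marks mast cells. The 6 mast cell markers, none called, had negative log2 fold changes in 6 of 6 and summed to 35.5 to 555 CPM (median 195) in wild type and 4.46 to 94.9 CPM (median 44.3) in the Arf6-null group, and their part in the Kit levels was not tested. DESeq2 and limma-voom each called 1 gene of this list, Kit as lower. In the whole series they called 1255 of 18935 and 483 of 16225 genes lower. Ap2a1, an adaptor subunit of clathrin-coated pits, had a mean of 93.7 ± 10.02 against 106 ± 5.60 CPM (adjusted p = 0.236 by edgeR).

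The genes whose pattern was most like each member were taken as the highest Pearson's r of log2 CPM over the 12 tumors after subtraction of genotype means, out of 11118 protein-coding genes with a mean of at least 5 CPM. These are the best of many over 12 points and carry no test. For Adap2 they were Fgd2 (r = 0.972) and Arhgap15 (0.972), and for Adap1 Aif1 (0.963) and Rgs14 (0.951). For the ARAP genes they were Gtpbp8 (0.957) and Lurap1l (0.932) with Arap1, Rimbp2 (0.934) and Pknox2 (0.925) with Arap2, and Arfgap1 (0.898) and Sec31a (0.878) with Arap3. Arfgap1 is another ARF GTPase-activating protein gene, at a mean of 83.2 CPM. For Git1 they were Cyp1b1 (0.887) and Slc35e4 (0.868), for Git2 Crabp1 (0.919) and Ufsp2 (0.895), for Smap1 Atp6v1g1 (0.955) and Vapa (0.909), and for Smap2 Ntng2 (0.927) and Wdr81 (0.921). None of these 18 genes passed the test for a genotype difference, with the smallest edgeR adjusted p at 0.0629 for Slc35e4.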

How the data were processed

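The authors deposited 1 table of read counts for Ensembl genes, without normalization. The submitters' processing notes name STAR 2.7.3a, featureCounts 1.6.3, DESeq2 1.26.0 and GRCm38 (mm10); per the labels' protocols the libraries were made with a stranded poly(A) kit. The sources used here do not give the annotation release, the strand setting or the treatment of reads with several matches. Each column carries a library name that 1 sample title also holds, and groups come from the genotype label. Symbols and positions are from GENCODE M21. No 2 libraries agreed within sampling noise (smallest chi-square per degree of freedom 84.6 over 66 pairs).

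Genes were filtered with filterByExpr (minimum count 10), given TMM factors and tested by quasi-likelihood with edgeR 4.0.16 (R 4.3.3, robust) over all 16225 genes with Benjamini-Hochberg adjustment. Log2 CPM used a prior count of 2, and correlations used 100000 permutations within genotype. DESeq2 1.42.0 and limma 3.58.1 served as alternatives. The functions were tested on simulated data. Members, lists and tests were chosen with earlier results of these data known. Named genes are the members, Arf6, the called genes of each pathway list with the next 2 by p (1 list is not reported here), and the 2 genes most like each member.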

Additional observations from a re-analysis of the deposited data

Results flagged for a closer look

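Each set of 6 tumors of a genotype was examined for a tumor far from the other 5, on the log2(CPM + 1) scale for the 9 genes and on the log2 scale for the 5 ratios. Of 28 sets 4 held such a tumor, where chance gives about 1 in 20 for a single set. The 5 ratios are made from the same 9 genes, so the 28 sets are not independent. The count therefore cannot show an excess over chance.

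For Git1 it was Arf6-null replicate 3, at 6.14 where the remaining 5 tumors spanned 6.69 to 7.01. For Git2 it was wild-type replicate 1, at 6.67 where the remaining 5 spanned 6.40 to 6.49. Wild-type replicate 1 was also apart in the log2 ratio of Git1 to Git2, with -0.476 below a span of 0.016 to 0.306, and in that of Arap1 to Arap2, with 3.92 above a span of 2.95 to 3.30.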

How the results depend on the processing

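The number of genes called over all genes was 186. It moved to 2241 with DESeq2, 996 with limma-voom, 30 with Y-linked expression as a covariate, 15 with the endothelial score as a covariate, 35 without the muscle-rich wild-type replicates 3, 4 and 5, and 1359 at a threshold of 0.1. Leaving out 1 library gave 25 to 766. Members called were 0 in 23 of the 24 alternatives and 1 with DESeq2. Arap1 changed sign, to 0.0006 with limma-voom, 0.26 with the Y-linked covariate, 0.067 with the endothelial covariate, 0.06 without wild-type replicates 3, 4 and 5, and 0.22 in the 8 libraries with Y-linked expression over 10 CPM, and leaving out 1 library gave -0.17 to 0.019. In those 8 libraries Arap2 was at 0.30. Adap1 was at 0.083 with the Y-linked covariate and 0.087 with the macrophage covariate, and was not tested under the filter of 10 CPM. The other 6 members kept their direction in all 24 alternatives. The covariate of macrophage markers and the restriction to 8 libraries were chosen after seeing the data.

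The difference in log2 ratio of Smap1 to Smap2 was 0.37 (exact permutation, adjusted p = 0.208) without wild-type replicates 3, 4 and 5 and 0.37 (0.223) in the 8 libraries, and that of Adap1 to Adap2 was 0.67 (0.208) and 0.48 (0.223). A pair passing alone cannot go below an adjusted p of 0.0595 in the first of these sets and 0.0893 in the second, so these p-values say little about stability. Leaving out 1 library gave 0.35 to 0.48 for Smap1 to Smap2, 0.59 to 0.80 for Adap1 to Adap2 and 0.29 to 0.55 for Git1 to Git2. The cause of these changes was not tested. No paired analysis was possible because the labels give no replicate numbers and tie no tumors into pairs, although the series' design text calls the groups matched. Adap1, with 63 counts in 1 library, is the member most limited by depth.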

Other observations

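Within wild type, Arap1 and Arap2 were separate by Y-linked expression, a split chosen after their values were seen and not tested. The 3 wild-type tumors at or under 10 CPM of Y-linked transcripts (replicates 3, 5 and 6) had 195 to 204 CPM of Arap1 and 20.7 to 26.5 CPM of Arap2. The 3 over that level had 95.1 to 161 CPM and 9.59 to 13.0 CPM. In Arf6-null tumors the 1 tumor under the level, replicate 6, had the highest Arap1 at 207 CPM and 11.2 CPM of Arap2, within the 5.29 to 17.4 CPM of the other 5. The 3 wild-type tumors also had the highest T cell scores of their genotype, 2.83 to 4.03 against 1.40 to 1.70 in the others, and the part of either measure in the Arap1 and Arap2 levels was not tested.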
